A study of Homo sapiens with 52 samples.

Results

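Ca-Sen, calcium-dependent senescence, was induced in WI-38 cells with medium containing 75 mM KCl for 24 h, and the comparison described here sets the cells on day 2 after the treatment against untreated cells. Its members were the genes with a mean normalized read count of at least 10 over the 4 libraries of the comparison. The rule selected 14495 of the 59409 entries listed for the series, and 29066 entries had a read in any of the 4 libraries. One selected entry carried no gene name, so 14494 genes were tested. At the limit, LAMB4 (10.01) and AC112907.2 (10.011) were just inside, and TACR2 (9.991) and PTGDR2 (9.99) were just outside.

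The series followed WI-38 cells, a line of embryonic lung fibroblasts, through several inducers of senescence by mRNA sequencing, from extracted total RNA, with 52 libraries in 26 groups of 2. The Untreated group was wild-type, young WI-38 cells at a low population doubling level, and no agent was added. The Ca-Sen groups were the same cells after the KCl medium had been washed away and ordinary medium restored, taken on 8 days from day 0, the end of the 24 h of treatment, to day 16. For PMD-Sen, senescence after plasma membrane damage, 0.009% sodium dodecyl sulfate replaced the KCl for 24 h, and only day 2 of it is used here. RS, replicative senescence by repeated passaging, has 2 libraries that enter only the fit of 22 libraries, the one used for PMD-Sen. All groups come from 1 cell line. The study's methods call the 2 samples of a group independent, without saying whether they were separate cultures. The p-values therefore measure the spread between the 2 samples of a group, pooled over all groups of a fit. The labels name no other control for 75 mM KCl, so depolarization, calcium influx and the raised salt of the medium cannot be told apart in these groups.

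The reads of each library were recovered as whole numbers from the deposited means. They totalled 19.0 and 15.3 M in Untreated, 29.2 and 26.1 M on day 2, and between 20.5 and 51.6 M in all Ca-Sen libraries (M for mega, reads counted to genes). The untreated libraries were the shallowest, and the 2 libraries of a group correlated at r = 0.9863 in Untreated and 0.9912 on day 2 (log2 values across genes). Levels below are normalized read counts, that is reads divided by a size factor of the library, and each pair of levels gives the deeper library of a group first and the shallower one second. Fold changes are on the log2 scale, with their standard error (SE), and adjusted p-values are from limma with Benjamini-Hochberg adjustment over all 14494 genes. Genes with an adjusted p below 0.05 are spoken of as called. In bulk RNA, fewer cells of a type and less RNA per cell cannot be told apart.

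The libraries carried the RNA of fibroblasts. All 10 listed fibroblast markers were members, with 351463 to 655901 summed reads per library. The leukocyte markers PTPRC and CD3E had 0 to 1 reads, the list summed to 15 to 44 reads, and the muscle myosins MYH2 and MYH7 were at 0. Among epithelial markers, CDH1 had 0 to 2 reads and EPCAM 9 to 14. The keratins KRT8, KRT18 and KRT19 were present and carried most of the 1796 to 5229 reads of that list, and KRT19 rose by 0.81 ± 0.17 (adjusted p = 0.0091). Of the endothelial markers, PECAM1, CDH5 and KDR had at most 7 reads. TEK had 1603 to 2349 reads. Neuronal markers summed to 217 to 358 reads.

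Cells leaving the cycle turn down genes under the control of E2F factors, which drive DNA replication, and of the DREAM and MuvB complexes, which act at cell cycle genes homology region (CHR) elements of mitotic genes. The transcription factor p53 raises CDKN1A, the gene of the CDK inhibitor p21, while CDKN2A encodes p16 and LMNB1, encoding lamin B1, is commonly lost in senescence. A burst of calcium signals through calmodulin, calcineurin and NFAT, and a salt load signals through NFAT5 to genes that make or import osmolytes.

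Day 2 was the day on which the fewest genes differed from untreated cells. Of the 14494 genes, 1210 were called on day 2 (8.35% of those tested), 479 higher (3.30%) and 731 lower (5.04%). The counts on the other days were 9183 on day 0 (63.4%), 3086 on day 1 (21.3%), 2765 on day 3 (19.1%), 3451 on day 4 (23.8%), 4379 on day 6 (30.2%), 6625 on day 8 (45.7%) and 2927 on day 16 (20.2%). All 8 comparisons shared the 2 untreated libraries. The changes of day 2 were small: 80 of the 1210 genes were at least 1 in size on the log2 scale, 803 were below 0.5, and the median size was 0.40. The median over all genes was -0.01. The count rested on each library, since it fell to 229 without the deeper day 2 library, 605 without the shallower one, 545 without the deeper untreated library and 565 without the shallower one. When libraries were scaled by their totals, 743 genes were higher and 582 lower.

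**Figure D1:**
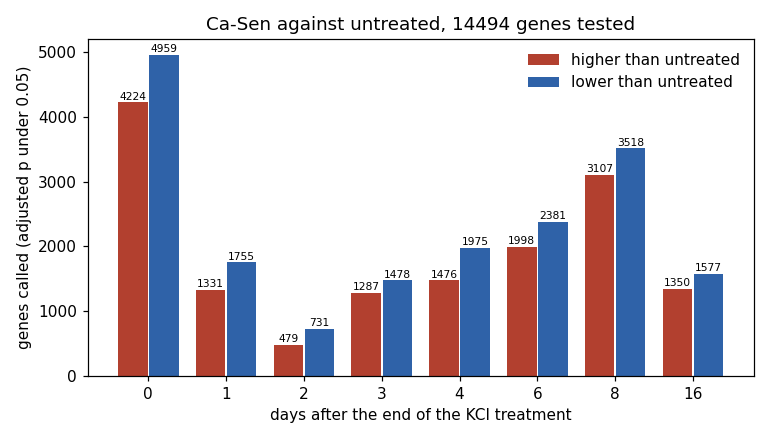
Number of genes called against Untreated on each day of Ca-Sen (limma, adjusted p below 0.05, 14494 genes tested, 2 libraries a group), split into higher and lower. Day 2, with 1210 genes, is the lowest of the 8 days, and day 0, with 9183, the highest.

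**Figure D2:**
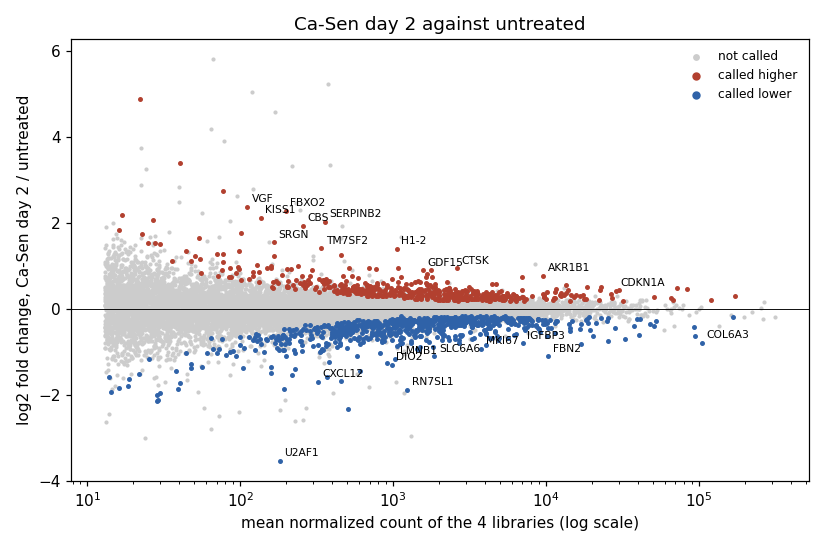
Change of each tested gene on day 2 against Untreated (vertical axis, log2) by its mean level (horizontal axis), with called genes coloured. Most of the 1210 called genes lie within 1 of no change, and 80 lie beyond it.

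Proliferation genes were lower on day 2, yet less so than on any neighbouring day by their medians. Of the 40 DNA replication genes tested, 19 fell and none rose, with a median of -0.52, and of the 49 mitosis and kinetochore genes 22 fell and none rose, with a median of -0.61. At an unadjusted p below 0.05 in the same limma fit, 31 and 43 genes were lower and 0 higher, and limma-trend called 13 and 14 lower and 0 higher. The medians of the replication list were -0.72 on day 1 and -0.97 on day 3, and those of the mitosis list -0.79 and -1.30. By day 8 they had reached -1.53 and -2.82. Directly between days 2 and 1, 1 replication gene and 2 mitosis genes rose and none fell, where 14.2% of all tested genes were called. At an unadjusted p below 0.05 in that limma comparison, 7 replication and 3 mitosis genes were higher on day 2 than on day 1. In each list 1 gene was lower, where 4082 of all genes passed that level, and the medians were 0.18 and 0.15. Between days 2 and 3, 2 of the 40 replication genes and none of the 49 listed mitosis genes were called, both of the first higher on day 2. At an unadjusted p below 0.05 in this limma comparison, 28 replication and 43 mitosis genes were higher on day 2 than on day 3 and 0 lower, where 2266 of all genes passed that level, and the medians were 0.45 and 0.63. The counts of day 2 depended on single libraries. Without the deeper day 2 library, 1 of the 19 replication calls and 2 of the 22 mitosis calls were kept, and without the deeper untreated library 3 and 4. Without the shallower day 2 library 10 and 13 were kept, and without the shallower untreated library 11 and 8.

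LMNB1 (chr5:126776623-126837020, RefSeq on GRCh38.p14) had levels of 1536 and 1300.3 in Untreated and 556 and 727 on day 2. Both day 2 libraries were below both untreated libraries, and the change of -1.17 ± 0.20 passed the test (adjusted p = 0.0035). MKI67 (chr10:128096659-128126423), encoding the proliferation marker Ki-67, went from 5553 and 4332 to 2338 and 2857, again without overlap. Its change was -0.93 ± 0.25 (adjusted p = 0.036), and it stayed called in 4 of 11 alternatives, against 10 of 11 for LMNB1.

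TK1 (chr17:78174079-78187204), the thymidine kinase of the salvage pathway, had 2416 and 2313 in Untreated and 1237 and 1303 on day 2 and fell by 0.90 ± 0.14 (adjusted p = 0.0025). ORC1, a subunit of the origin recognition complex, went from 271 and 234 to 109 and 157 (-0.96 ± 0.18, adjusted p = 0.0061). In neither gene did the groups overlap. All of MCM2 to MCM7, which form the replicative helicase, fell, with changes of -0.59, -0.56, -0.56, -0.63, -0.63 and -0.64 in that order, and MCM10 fell by 0.85. PCNA, the sliding clamp, changed by -0.21 ± 0.10 (adjusted p = 0.22) and was not called.

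Among mitotic genes, CENPA, the centromeric histone H3 variant, had 298 and 243 in Untreated and 117 and 137 on day 2. It fell by 1.10 ± 0.23 (adjusted p = 0.011), with no overlap. FOXM1, a transcription factor of mitotic genes, went from 1760.2 and 2011 to 927 and 1038 and fell by 0.94 ± 0.11 (adjusted p = 0.00043), while BIRC5, encoding survivin, fell by 0.89 ± 0.18 (adjusted p = 0.0094). The kinase CDK1, at 902 and 880.4 and then 589 and 713, was not called (-0.47 ± 0.27, adjusted p = 0.31).

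Promoter sequence of these lists was read from RefSeq (GRCh38.p14), in the 250 bases before each start and on both strands. Of the tested genes, 10364 had a promoter there. The CHR letters TTTGAA or TTCGAA were in 8 of the 17 matched mitosis genes called lower (47.1%), against 13.7% of the tested genes and 17.2% of all 27305 genes of the table. Over all 42 matched mitosis genes tested, called or not, the share was 54.8%. E2F letters, TTTGGCGC or TTTCGCGC, were in 5 of 16 matched replication genes called lower (31.2%), against 2.04% of tested genes and 1.20% of all, and in 6 of all 34 matched replication genes tested (17.6%). CCAAT was in 68.8% and 70.6% of the called replication and mitosis genes, against 41.3% of the tested genes. Over all 34 and 42 matched genes of these lists, called or not, the shares were 58.8% and 71.4%. A match is a description of the letters and not evidence of binding. The windows below are 120 bases each, 5′ to 3′ on the gene's strand, chosen because they carry the letters in genes that fell on day 2. Capitals mark every match to the motif named for the window, CHR or E2F, including its reverse complement (TTCAAA, GCGCCAAA). Matches to CCAAT are not marked. In MCM6 matches of both orientations overlap.
CENPA (CHR; chr2:26785936-26786055, plus strand): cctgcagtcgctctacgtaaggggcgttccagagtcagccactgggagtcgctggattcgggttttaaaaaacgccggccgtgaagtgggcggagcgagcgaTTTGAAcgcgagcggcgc
MKI67 (CHR; chr10:128126424-128126543, minus strand): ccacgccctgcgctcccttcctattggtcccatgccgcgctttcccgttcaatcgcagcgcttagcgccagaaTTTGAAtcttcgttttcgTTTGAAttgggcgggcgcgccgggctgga
SMC4 (CHR; chr3:160399518-160399637, plus strand): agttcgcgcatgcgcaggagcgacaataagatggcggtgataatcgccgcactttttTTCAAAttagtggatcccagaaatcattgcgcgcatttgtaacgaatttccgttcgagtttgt
POLA1 (E2F; chrX:24693725-24693844, plus strand): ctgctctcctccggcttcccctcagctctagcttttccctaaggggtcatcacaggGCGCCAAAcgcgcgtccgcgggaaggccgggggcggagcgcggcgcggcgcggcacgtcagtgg
MCM7 (E2F; chr7:100101398-100101517, minus strand): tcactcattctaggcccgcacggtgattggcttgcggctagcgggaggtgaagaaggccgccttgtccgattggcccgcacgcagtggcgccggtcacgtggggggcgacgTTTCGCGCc
MCM6 (E2F; chr2:135876499-135876618, minus strand): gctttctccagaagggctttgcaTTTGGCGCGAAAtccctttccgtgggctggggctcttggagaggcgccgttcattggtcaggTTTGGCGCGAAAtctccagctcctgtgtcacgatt
Of the genes shown, SMC4 of the condensin complex fell by 0.70 and POLA1, the catalytic subunit of DNA polymerase alpha, fell by 0.81.

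The nuclear lamina and chromatin list fell as well, with 12 of 20 genes lower, 1 higher (HMGA2, 0.46) and a median of -0.38. Beside it, 5.04% of all tested genes were lower and 3.30% higher. HMGB2, a chromatin protein lost in senescence, went from 2089 and 1792 in Untreated to 934 and 1099.8 on day 2, without overlap, and fell by 0.94 ± 0.20 (adjusted p = 0.011). EZH2, the methyltransferase of Polycomb, fell by 0.72 ± 0.21, and DNMT1, the maintenance DNA methyltransferase, fell by 0.53 ± 0.09. Homologous recombination and Fanconi genes gave 7 falls and no rise among 32, with a median of -0.37. Of these, XRCC2 fell by 0.74, BARD1 fell by 0.68 and BRCA1 fell by 0.52. Without the deeper day 2 library, 4 of the 13 lamina and chromatin calls and none of the 7 repair calls were kept.

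The p53 target list was higher on day 2: of 26 genes, 10 rose and 1 fell (BAX, -0.20), with a median of 0.27. Of all tested genes, 3.30% rose and 5.04% fell. The calls of this list held better than those of the proliferation lists, with 7 to 8 of 11 kept when any of the 4 libraries was left out. CDKN1A (chr6:36676463-36687332) had 23581 and 25388 in Untreated and 32861 and 32188 on day 2. Both day 2 libraries were above both untreated ones, and the rise was 0.41 ± 0.06 (adjusted p = 0.0023). Its level on days 3 to 8 was higher still, at 39859 and 40249 on day 3 and 41966 and 48268 on day 6. The test of day 2 against day 3 gave -0.30 ± 0.06 (adjusted p = 0.052) and was not passed.

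GDF15 (chr19:18386158-18389176), a secreted stress cytokine, went from 1143 and 1042 to 2037 and 2033, a rise of 0.89 ± 0.07 (adjusted p = 4.5e-05) in which the groups did not overlap. Its highest level was on day 0, at 5972 and 5884, and it fell from day 1 to day 2, a difference of -0.33 ± 0.06 (adjusted p = 0.0023). TP53I3, an oxidoreductase gene induced by p53, had 1226 and 1234 in Untreated and 2145 and 1979 on day 2 and rose by 0.74 ± 0.08 (adjusted p = 0.00012).

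The genes of the cyclins, CDK inhibitors and the RB-E2F pathway moved in both directions, with 4 of 29 higher and 6 lower. For all tested genes the shares were 3.30% higher and 5.04% lower. CCND2, encoding cyclin D2, went from 412 and 389 to 679.6 and 682, above both untreated libraries, and rose by 0.76 ± 0.11 (adjusted p = 0.0013). CDKN2A had 675 and 670.4 in Untreated and 918 and 938 on day 2 and rose by 0.46 ± 0.10 (adjusted p = 0.013), called in 6 of 11 alternatives. CDKN2C, encoding p18, fell by 0.84 ± 0.20, E2F1 fell by 0.55 ± 0.08, and the other called members were CCND1 (0.46), CDKN1A, CDK2 (-0.46), CDKN1B (-0.42), TFDP1 (-0.24) and LIN9 (-0.71).

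CDKN2B, encoding p15, was back near its untreated level on day 2. It had 365 and 282 in Untreated, 1703 and 1972 on day 0, 742 and 805 on day 1 and 362 and 453 on day 2. The fall from day 1 to day 2 was -0.93 ± 0.13 (adjusted p = 0.00026), and day 2 against Untreated gave 0.31 ± 0.17 (adjusted p = 0.28), with 1 day 2 library between the untreated ones. Of 14 replication-dependent histone genes, 3 rose and 1 fell on day 2 against Untreated, where 3.30% of all tested genes rose and 5.04% fell. H1-2, a linker histone, went from 509 and 667 to 1669 and 1373 and rose by 1.40 ± 0.14 (adjusted p = 0.00012), and H2BC12 rose by 0.61. Transcripts of these histone genes mostly lack a poly(A) tail, and how the RNA was selected was not tested as a source of the difference.

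**Figure D3:**
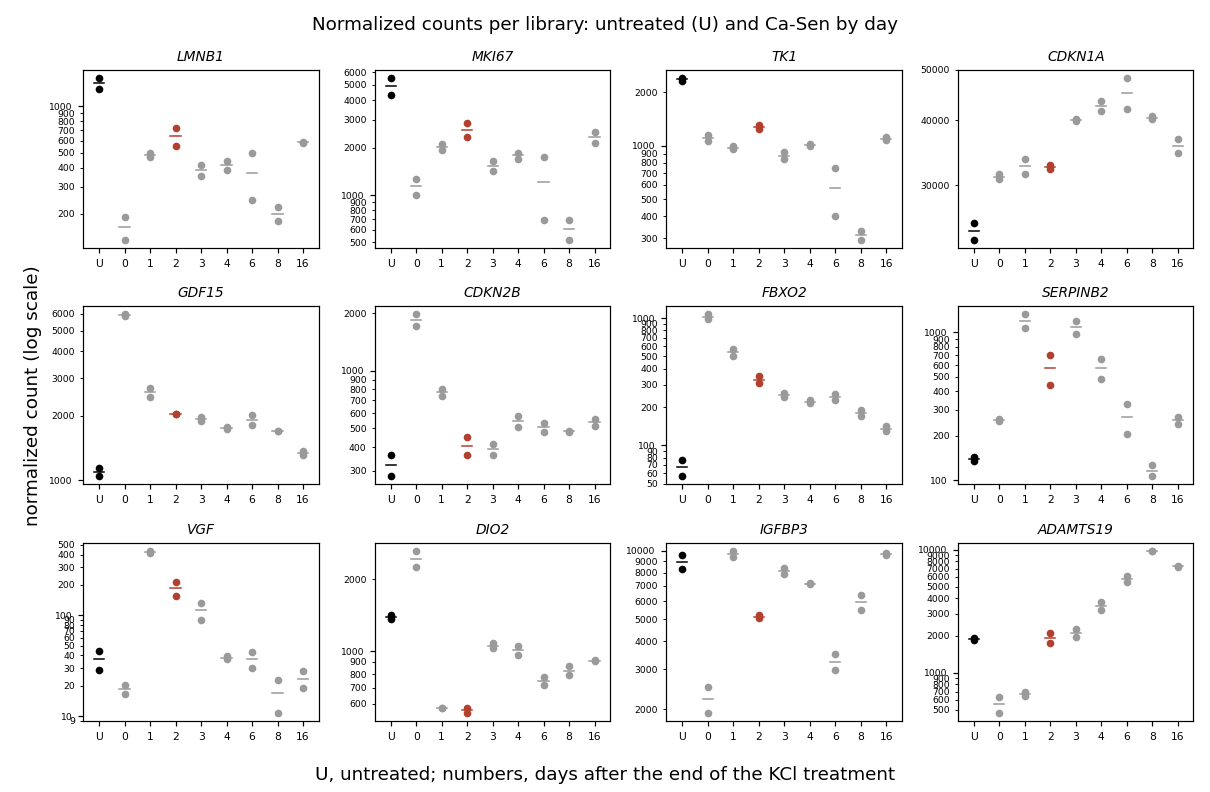
Normalized read count of 12 genes in each library of Untreated and of the 8 Ca-Sen days (log axis, 1 point a library, a short bar at the mean of the pair). LMNB1, MKI67 and TK1 lie below the untreated pair on day 2 and above their day 3 pair, CDKN2B is near its untreated level, and FBXO2, VGF and SERPINB2 are above theirs.

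The genes named next had the largest called changes on day 2 among genes with a mean of at least 100 whose groups did not overlap. VGF (chr7:101162509-101169952), a secreted neuropeptide precursor, had 28.8 and 44.2 in Untreated and 216 and 157 on day 2. Both day 2 libraries were above both untreated ones, and the rise was 2.37 ± 0.36 (adjusted p = 0.0019). Its level was 419 and 437 on day 1 and 36.5 and 39.3 on day 4.

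FBXO2 (chr1:11648387-11654429), the F-box protein of a ubiquitin ligase for glycoproteins, went from 77.2 and 57.1 to 348 and 308 and rose by 2.27 ± 0.21 (adjusted p = 9.2e-05). It was called in 11 of 11 alternatives and its level fell from 1073 and 981 on day 0 to 141 and 129 on day 16, above both untreated libraries on every day. KISS1 (chr1:204190341-204196491), the kisspeptin precursor, went from 54.5 and 46.0 to 251 and 192, a rise of 2.11 ± 0.41 (adjusted p = 0.0078), and SERPINB2 (chr18:63887705-63903888), an inhibitor of plasminogen activators, from 135 and 144 to 707 and 441, a rise of 2.02 ± 0.37 (adjusted p = 0.0056). Without overlap in either, the 2 day 2 libraries of SERPINB2 still differed from each other by more than the untreated ones did.

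Further down the list of the largest rises were FABP3, a fatty acid binding protein (1.76 ± 0.31), SRGN, the proteoglycan serglycin (1.54 ± 0.25), the linker histone H1-2, LRRN4CL (1.24), HSD17B14 (1.21) and DKK2, a Wnt modulator (1.01). CBS, the cystathionine synthase, had 132 and 81.0 in Untreated and 497 and 322 on day 2, a rise of 1.93 ± 0.52 (adjusted p = 0.035). A near-identical copy of CBS is annotated as CBSL, so its count is uncertain, and on day 8 its libraries read 83.9 and 297.

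The largest falls included some genes whose counts are uncertain for the same reason. U2AF1 (-3.54), which has the copy U2AF1L5, and RN7SL1 (-1.89), of a repeated family of signal recognition particle RNAs, fell on day 2. RAB11FIP3 fell by 2.34 ± 0.67 (adjusted p = 0.043) with levels of 1028 and 613 and then 97.1 and 277, and BMERB1 fell by 1.88. The 2 libraries of RAB11FIP3 also differed widely on other days, at 84.7 and 280 on day 6. Of the rest, CXCL12 (chr10:44370165-44385097), a chemokine of fibroblasts, went from 459 and 532 to 159 and 141, with no overlap, and fell by 1.71 ± 0.17 (adjusted p = 0.00012). FGL2 fell by 1.69, with untreated libraries that differed widely (412 and 1022), WNT2 fell by 1.50 and PLPPR4 fell by 1.40. Some of the largest changes were also found in PMD-Sen on day 2, against the same untreated libraries in the fit of 22 libraries. There U2AF1 gave -4.07, RN7SL1 -2.40 and SERPINB2 2.29, while VGF (0.36) and CXCL12 (-0.38) were not called.

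Secreted inflammatory factors were lower rather than higher on day 2, with 6 of 22 listed genes lower, none higher and a median of -0.39. Among all tested genes 8.35% were called on day 2, with 5.04% lower and 3.30% higher. CCL2, a monocyte chemokine, had 717 and 1068 in Untreated and 293 and 339 on day 2 and fell by 1.46 ± 0.33 (adjusted p = 0.017). IL6 had 69.6 and 109 in Untreated and 45.7 and 42.6 on day 2 and fell by 0.95 ± 0.27 (adjusted p = 0.046), but was called in 3 of 10 alternatives only. CXCL8 read 36.3 and 249 in Untreated and 28.6 and 30.9 on day 2, so the untreated libraries differed widely and the gene was not called (-1.56 ± 0.71, adjusted p = 0.19). On day 8 the list was higher in 13 genes and lower in 2, with a median of 0.82. On that day 45.7% of all 14494 genes were called, 3107 higher and 3518 lower. None of the 33 interferon-stimulated genes was called on day 2 by limma (median -0.11), where 1 was higher and 3 were lower at an unadjusted p below 0.05 and limma-trend called 1 lower. On day 8, 21 of them rose and 1 fell, beside the 45.7% of all genes called that day. Without the deeper day 2 library or the shallower untreated one, 1 of the 6 inflammatory calls was kept, without the shallower day 2 library 2, and without the deeper untreated library 4.

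Collagens and other matrix genes were lower in part. Of 26 collagens 9 fell and none rose (median -0.20), and of 41 matrix glycoproteins, laminins and integrins 11 fell and 4 rose (median -0.17). The shares over all tested genes were 5.04% lower and 3.30% higher. COL15A1, a collagen of basement membrane zones, went from 646 and 444 to 143 and 237 and fell by 1.58 ± 0.32 (adjusted p = 0.0092). COL4A1 of basement membranes had 30069 and 33514 in Untreated and 18445 and 18921 on day 2, without overlap, and fell by 0.76 ± 0.08 (adjusted p = 0.00012). COL14A1 fell by 1.35, and the major fibrillar collagen genes COL1A1 (-0.19 ± 0.11, adjusted p = 0.33) and COL3A1 (-0.16 ± 0.18, adjusted p = 0.63) were not called.

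FBN2, encoding fibrillin 2, had 14931 and 13322 in Untreated and 6056 and 7018 on day 2 and fell by 1.11 ± 0.13 (adjusted p = 0.00040). ELN, encoding elastin, went from 245 and 416 to 123 and 92.7, a change of -1.54 ± 0.30 (adjusted p = 0.0078). ITGA8, an integrin alpha subunit, fell by 0.78 ± 0.10, and the genes that rose were MFAP4 (0.61), LOXL4 (0.56), ITGB5 (0.32) and LOX (0.31). Leaving out 1 library kept 3 to 8 of the 9 collagen calls, the fewest without the deeper library of either group.

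Among 27 matrix proteases and inhibitors, 6 rose and 5 fell, where 3.30% of all tested genes were higher on day 2 and 5.04% lower. CTSK, encoding cathepsin K, went from 1771 and 1783 to 3325 and 3494 and rose by 0.94 ± 0.11 (adjusted p = 0.00040). MMP1, interstitial collagenase, had 3988 and 6704 in Untreated and 9719.9 and 7518 on day 2 and rose by 0.73 ± 0.20 (adjusted p = 0.037), and ADAM12 fell by 0.77. The list had been higher on day 1 in 13 genes and lower in 4, where 21.3% of all genes were called. From day 1 to day 2 it fell in 13 and rose in 4, with a median of -0.39. In that step 6.99% of all genes fell and 7.24% rose.

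Cholesterol synthesis genes were higher on day 2: 8 of 27 rose and none fell, with a median of 0.36, where 3.30% of all tested genes rose. TM7SF2 (chr11:65111872-65116230), a sterol reductase, had 249.7 and 129 in Untreated and 503 and 477 on day 2 and rose by 1.40 ± 0.21 (adjusted p = 0.0021), called in 11 of 11 alternatives. MSMO1, the methylsterol oxidase, had 1504 and 972 in Untreated and 2329 and 2213 on day 2 and rose by 0.89 ± 0.23 (adjusted p = 0.028), in 5 of 11. HMGCS1 and DHCR7, an early and a late enzyme of the pathway, rose by 0.68 and 0.73. The untreated libraries differed from each other in TM7SF2 and MSMO1. Without the deeper day 2 library or the shallower untreated one 1 of the 8 calls was kept, without the shallower day 2 library 4 and without the deeper untreated one 5.

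NRF2 and antioxidant genes were lower, with 9 of 31 down and 2 up (FTL, 0.48, and GPX1, 0.39), and a median of -0.12. Of all tested genes 5.04% were lower on day 2 and 3.30% higher. GCLM, of the glutathione synthesis enzyme, went from 2562 and 3208 to 1597 and 1834, a change of -0.74 ± 0.10 (adjusted p = 0.00075), with no overlap. TXNRD1, thioredoxin reductase, fell by 0.70 ± 0.10 and ABCC1, a glutathione conjugate exporter, fell by 1.26 ± 0.27. HMOX1 read 2398 and 3088 on day 0, 1255 and 1489 on day 1 and 756 and 691 on day 2, and fell from day 1, a difference of -0.91 ± 0.21 (adjusted p = 0.012). From day 1 to day 2, 13 of the 31 fell and 3 rose, where 6.99% of all genes fell and 7.24% rose. Without the deeper day 2 library 5 of the 11 calls against Untreated were kept.

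Lists tied to the treatment itself are given next, beside the 8.35% of all tested genes called on day 2. The osmotic stress list, with the NFAT5 targets, gave 2 rises and 2 falls among 12 genes on day 2. On day 0 it had given 10 rises and 1 fall, with a median of 0.97. Of all 14494 genes, 63.4% were called on day 0, with 4224 higher and 4959 lower. AKR1B1 (chr7:134442350-134459239), the aldose reductase that makes sorbitol, read 5918 and 8439 in Untreated, 97144 and 101074 on day 0, 30904 and 34818 on day 1 and 12676 and 11314 on day 2. It was still higher than in Untreated, by 0.76 ± 0.12 (adjusted p = 0.0022), and had fallen from day 1, a difference of -1.45 ± 0.11 (adjusted p = 5.4e-06). SLC6A6, the taurine transporter, went from 2535 and 2538 to 1146 and 1205 and fell by 1.11 ± 0.10 (adjusted p = 9.2e-05).

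Of 36 calcineurin, NFAT and MEF2 genes, none rose and 2 fell (HDAC4, -0.55, and CREB1, -0.27), and of 32 immediate early and calcium-responsive genes 1 rose and 2 fell. Of 40 calcium channels, pumps and stores 1 rose and 3 fell. TRPV2, a cation channel, rose by 0.59 ± 0.08 and ATP2B1, a plasma membrane calcium pump, fell by 0.30 ± 0.05. Among 30 potassium channels and pump genes, KCND1 rose (0.76) and KCNE4 (-1.38 ± 0.24) and the kinase SGK1 (-0.55) fell.

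Membrane repair and ESCRT genes gave 6 rises and no fall among 31, with a median of 0.08. ANXA4, a calcium-binding annexin, went from 1589 and 1884 to 2281 and 2224 and rose by 0.39 ± 0.07 (adjusted p = 0.0053). CHMP4B, the ESCRT-III subunit, read 3604 and 3623 in Untreated and 3399.9 and 3285 on day 2 and was not called (-0.11 ± 0.05, adjusted p = 0.22). None of the 6 calls was kept without the deeper library of either group, and without the shallower day 2 library 4 were kept and without the shallower untreated one 2.

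Of 34 lysosome and autophagy genes 7 rose and 1 fell (GABARAPL1, -0.55), among them LIPA, lysosomal acid lipase (0.46 ± 0.09). GLB1, whose enzyme is the senescence-associated beta-galactosidase, read 2538 and 2378 in Untreated and 2589 and 2815 on day 2 and was not called (0.13 ± 0.06, adjusted p = 0.18). It rose from day 1 to day 2 by 0.30 ± 0.06 (adjusted p = 0.0031).

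The remaining lists are given by their counts, beside the same 8.35% over all tested genes. In the growth factor and IGF list IGF2 rose by 1.51 ± 0.38 from levels of 15.1 and 14.7, IGFBP6 rose by 0.57 ± 0.06, and IGFBP3 (chr7:45912245-45921272), which binds insulin-like growth factors, went from 9589.7 and 8323 to 5203 and 5039 and fell by 0.80 ± 0.11 (adjusted p = 0.00091). In the TGF-beta, BMP and ID list 1 of 29 rose and 6 fell, SMAD6, an inhibitory SMAD, most (-0.92 ± 0.11). ATF4 targets gave 2 rises and 5 falls of 33, the unfolded protein response 1 and 2 of 24, heat shock genes 0 and 2 of 18, actin and SRF targets 0 and 5 of 32, YAP and TEAD targets 1 and 8 of 23, hypoxia and glycolysis genes 3 and 3 of 31, and fatty acid genes 2 and 1 of 22. None of 27 ribosomal protein genes was called by limma or limma-trend, with 0 at an unadjusted p below 0.05, and 2 of 30 respiratory chain genes rose.

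**Figure D4:**
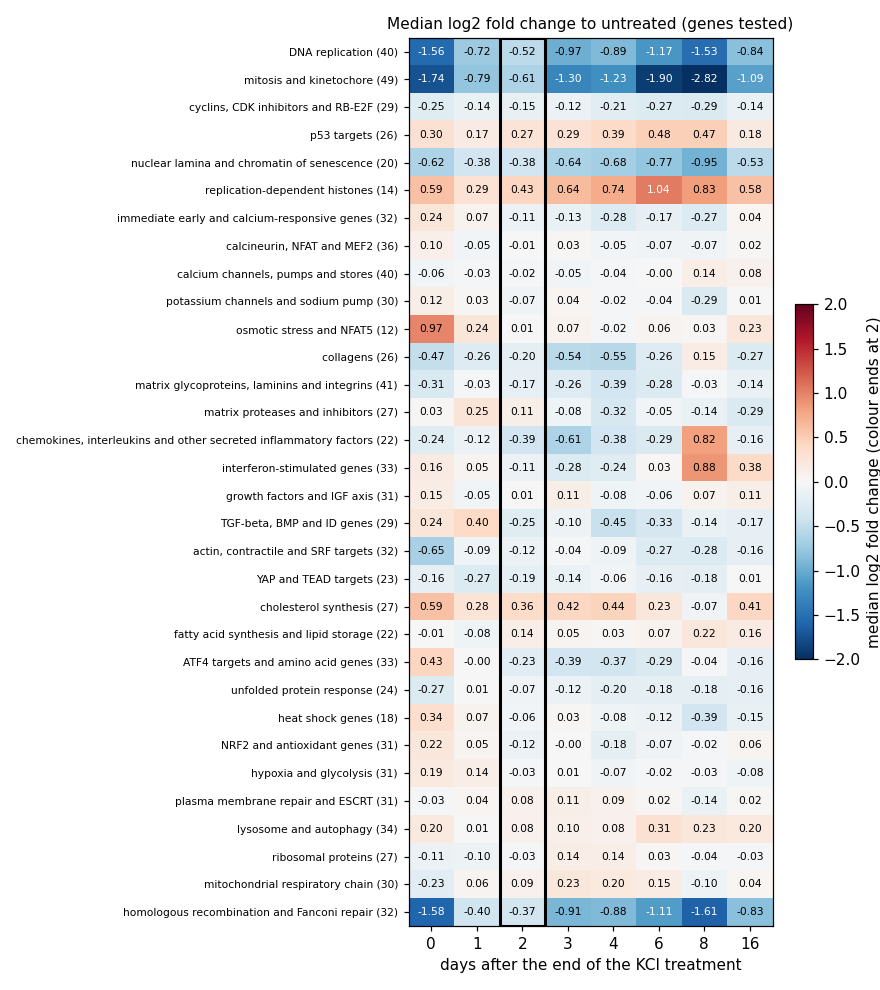
Median log2 change against Untreated of each gene list (down the side, with the number of genes tested) on each Ca-Sen day (along the bottom), with day 2 outlined. On day 2 the replication and mitosis lists are at -0.52 and -0.61, the cholesterol list at 0.36 and the p53 list at 0.27, and the day 8 column holds -1.53 and -2.82 for the first pair.

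**Figure D5:**
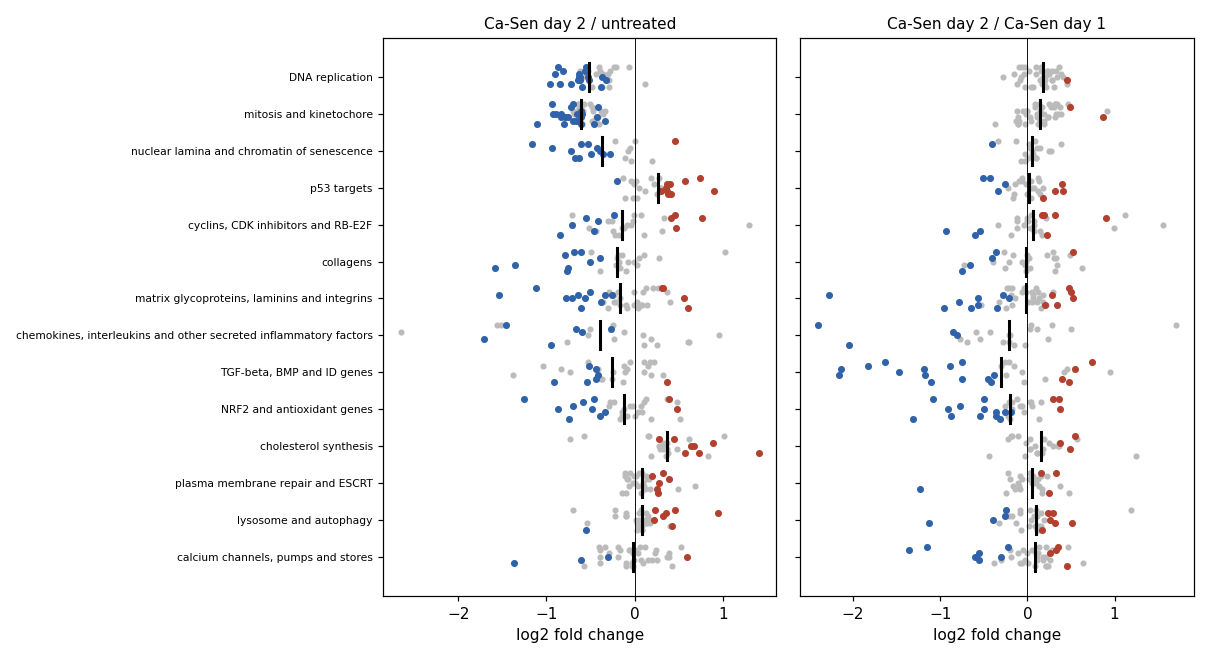
Log2 change of every tested member of 14 gene lists, 1 point a gene and a bar at the list's median, for day 2 against Untreated and day 2 against day 1, with called genes coloured. In the first panel the called replication and mitosis genes all lie below 0, and in the second the called members of the NRF2 and TGF-beta lists lie mostly below 0.

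Between day 1 and day 2, 2062 of 14494 genes were called (14.2%), 1049 higher (7.24%) and 1013 lower (6.99%) on day 2. The count was 1153 without the deeper day 2 library, 807 without the shallower one, 1111 without the deeper day 1 library and 936 without the shallower one. Of the 29 TGF-beta, BMP and ID genes, which include feedback targets of these pathways, 10 were higher and 5 lower on day 1 against Untreated. In that comparison 21.3% of all genes were called. On day 2, 14 of the 29 were lower and 4 higher than on day 1 (median -0.30). ID1 (chr20:31605289-31606510), a BMP target, read 997 and 2288 in Untreated, 3202 and 4119 on day 1 and 1005 and 664 on day 2. It fell from day 1, a difference of -2.14 ± 0.32 (adjusted p = 0.00060). SMAD7 fell from 1269 and 1375 to 464 and 384, a change of -1.63 ± 0.25, and SKIL from 1865 and 2046 to 828 and 900.5, a change of -1.18 ± 0.09. TGFBR3 rose by 0.74 ± 0.17 and TGFB2 by 0.55 ± 0.11.

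Of the genes chosen for the size of the step, ADAMTS19 (chr5:129460298-129738683), a metalloprotease, read 689 and 646 on day 1 and 1736 and 2082 on day 2, where Untreated read 1840.5 and 1904. It rose by 1.50 ± 0.13 (adjusted p = 1.1e-05) and did not pass the test against Untreated (0.02 ± 0.12, adjusted p = 0.94). KIT, a receptor tyrosine kinase, and ROR1, an orphan receptor, rose from 181 and 141 to 405 and 461 and from 283 and 275 to 701 and 801, by 1.41 and 1.42. GDF5, SLC7A14, USP53 and FAM111B rose by 1.69, 1.61, 1.40 and 1.32.

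Of the genes that fell from day 1, IL21R, a cytokine receptor, went from 191 and 197 to 22.8 and 16.0, a change of -3.29 ± 0.42 (adjusted p = 0.00018). AMIGO2 went from 2462 and 2659 to 627 and 454, a change of -2.25 ± 0.26, and CAVIN4, a caveolar coat protein, from 603 and 610.2 to 159 and 126, a change of -2.09 ± 0.20. BMF, a BH3-only protein, fell by 2.02 and ESM1 fell by 2.46. Against Untreated, day 2 gave -1.17 for IL21R, -0.72 for AMIGO2, -0.07 for CAVIN4 and -0.41 for BMF, none of which was called.

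Between day 2 and day 3 few genes could be told apart: 54 of 14494 (0.373%), 23 higher and 31 lower on day 2. The count was 2 without the deeper library of either day, 9 without the shallower day 2 library and 6 without the shallower day 3 library, and with only the 4 libraries of these days in the fit it was 427. EGR1 (chr5:138465479-138469303), an immediate early gene, read 1115 and 1246 on day 2 and 653 and 578 on day 3, a difference of 0.93 ± 0.17 (adjusted p = 0.033) with no overlap. KIF14, a mitotic kinesin outside the mitosis list, was higher on day 2 by 0.86 ± 0.16, and the replication genes POLD1, a DNA polymerase subunit, and LIG1, a DNA ligase, by 0.59 ± 0.11 and 0.58 ± 0.11.

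DIO2 (chr14:80197526-80231057), the deiodinase that activates thyroid hormone, read 1418 and 1361 in Untreated, 550.1 and 574 on day 2 and 1082 and 1028 on day 3. It was lower on day 2 than on day 3, a difference of -0.91 ± 0.09 (adjusted p = 0.00066) and lower than in Untreated, a difference of -1.31 ± 0.09. IGFBP3 was lower than on day 3, a difference of -0.67 ± 0.11, SEMA6A with a difference of -0.58 ± 0.08, and CITED2, a transcriptional coregulator, with a difference of -0.52 ± 0.07.

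Against PMD-Sen on the same day, the Ca-Sen cells differed in 1965 genes, 806 higher (5.56% of those tested) and 1159 lower (8.00%). Size factors and spread were set over 22 libraries, those of Untreated, the 8 Ca-Sen days, PMD-Sen day 2 and RS. The count depended on the libraries, at 279 without the deeper PMD-Sen library, 366 without the shallower Ca-Sen one, 820 without the deeper Ca-Sen one and 1149 without the shallower PMD-Sen one. With library totals 1029 were higher and 558 lower, so the direction of small changes depended on the scaling. Few cell cycle genes were called: of the replication genes limma called none, with 0 at an unadjusted p below 0.05, and of the mitosis genes 1 was lower, with medians of -0.02 and -0.18. MKI67 gave -0.01 ± 0.31 (adjusted p = 0.99) and CDKN1A 0.05 ± 0.07 (adjusted p = 0.68).

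Collagens were higher in Ca-Sen than in PMD-Sen, with 12 of 26 called and none lower (median 0.61). Of 41 matrix glycoproteins, laminins and integrins, 15 were higher and 2 lower. Against Untreated, Ca-Sen day 2 gave 9 falls and 0 rises in the first list and 11 falls and 4 rises in the second. COL1A1, the main chain of type I collagen, read 131740 and 142790 in PMD-Sen and 312843 and 327661 in Ca-Sen, higher by 1.22 ± 0.25 (adjusted p = 0.0059). ITGA8 read 182 and 203 in PMD-Sen and 670.2 and 689.6 in Ca-Sen, higher by 1.83 ± 0.20 (adjusted p = 0.00016), and POSTN and LUM, encoding periostin and lumican, were higher by 1.80 and 1.77. Of the 12 collagen calls, 3 were kept without the deeper PMD-Sen library, 4 without the shallower Ca-Sen one, 7 without the deeper Ca-Sen one and 8 without the shallower PMD-Sen one.

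Genes of the unfolded protein response (11 of 24) and ATF4 targets (11 of 33) were higher in Ca-Sen than in PMD-Sen and none lower. Among them were HSP90B1 (0.86), an endoplasmic reticulum chaperone, and PHGDH (1.00), of serine synthesis. Against Untreated, Ca-Sen day 2 gave 1 rise and 2 falls in the first list and 2 rises and 5 falls in the second. Actin and SRF targets were lower in 15 of 32, including ACTA2 (-0.92), and heat shock genes in 11 of 18, including HSPH1 (-0.46), with none higher in either. GDF15 read 1136 and 1041 in PMD-Sen and 2237 and 2234 in Ca-Sen, higher by 1.04 ± 0.10 (adjusted p = 0.00010), and FBXO2 read 99.2 and 150.0 in PMD-Sen and 383 and 338 in Ca-Sen, higher by 1.59 ± 0.16 (adjusted p = 0.00011). VGF was higher by 2.01 ± 0.45 and CXCL12 lower, a difference of -1.33 ± 0.31.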

How the data were processed

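Messenger RNA sequencing of WI-38 cells (mRNA-seq in the study's methods, total RNA as the extracted molecule per the labels) gave 52 libraries, and groups were taken from the sample labels. The submitters' processing notes name Trim Galore, HISAT2, HTSeq, featureCounts and DESeq2, and the builds GRCh38 and hg38, with no versions. The authors deposited 1 table for each condition against Untreated, with a mean normalized count per gene, treated here as a signal, and with the fold change, its error, a statistic and p-values of their own comparison, which were not used. The 2 files of a condition hold the same table.

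The 10 tables that keep 15 digits give the whole reads of each library, because a mean over 4 libraries is a sum of reads divided by size factors. All 39968 genes with reads in these tables (of 59408 listed) were solved, with a largest relative residual of 5.05e-15, for 22 libraries. In each table, the 2 libraries with the smallest size factors were taken as the Untreated pair that all tables share. The residual given is that of the joint solution under this assignment. A recovered library carries no replicate number and is called deeper or shallower. Solving and fitting were tested on simulated data. One entry without a gene name (0.00162% of the summed means) was left out, and there were 0 further columns of per-sample values.

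The design planned limma on whole reads recovered from the deposited means. A count test was not run on the deposited values, since their unit is a mean. The planned limma 3.58.1 (voom and empirical Bayes, R 4.3.3) was fitted to the recovered reads of 18 libraries, Untreated and the 8 Ca-Sen days. The fit used median-of-ratios size factors and had 9 residual degrees of freedom. Two-sided Benjamini-Hochberg adjusted p-values were called at 0.05 over 14494 genes. PMD-Sen day 2 was compared in a fit of 22 libraries, these 18 with those of PMD-Sen day 2 and RS. Recovery and promoter searches used Python 3.11.15, numpy 2.4.6, pandas 2.3.3 and sympy 1.14.0, and figures matplotlib 3.10.9. Counts of 15.3 to 51.6 M reads (M for mega) a library limit the precision of low genes most. The alternatives were 4 or 22 libraries in the fit, library totals, no filter or a mean of at least 100, limma-trend with a pseudocount of 0.5 CPM, a size of at least 1, and each library left out. Named were the 12 largest called rises and falls of each comparison among genes with a mean of at least 100 and groups that do not overlap, up to 4 called members of each list and members a result turns on, 12 genes of senescence named in any case, and the genes next to the limit. The members and gene lists were chosen with earlier results of these data known.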

Additional observations from a re-analysis of the deposited data

Results flagged for a closer look

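Of the 12 senescence genes named in any case, 1 passed the test of a difference between inducers on the same day, and genes outside these 12 differed by more. GDF15, the secreted stress cytokine, was higher in Ca-Sen on day 2 than in PMD-Sen on day 2 by 1.04 on the log2 scale, in a direct limma test of the difference (adjusted p = 0.00010). Both Ca-Sen libraries, at 2237 and 2234, were above both PMD-Sen libraries, at 1136 and 1041, with size factors over 22 libraries. The groups differ in the agent added, and no cause was tested.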

How the results depend on the processing

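The count of 1210 genes on day 2 against Untreated kept within 1.5 times under library totals (1325), limma-trend (1604) and a mean of at least 100 (1358). It was 466 in the fit of 22 libraries, 633 with 4 libraries only, 735 with no filter (38497 genes) and 80 at a size of at least 1, and it ranged from 229 to 605 with 1 library left out. Day 2 had the lowest count of the 8 days under every alternative run on all days. Day 2 against day 1 gave 2062 genes, 1037 with 22 libraries, 195 at a size of at least 1 and 807 to 1153 with 1 library left out. With library totals it was 903 higher and 1272 lower. Day 2 against day 3 gave 54 genes, 2 with 22 libraries, 2 at a size of at least 1, 88 with no filter, 102 at a mean of at least 100, 427 with 4 libraries only and 2 to 9 with 1 library left out. At a size of at least 1 the other days gave 2903 on day 0, 383 on day 1, 381 on day 3, 421 on day 4, 632 on day 6, 1437 on day 8 and 410 on day 16. With 22 libraries day 1 gave 1927 and day 3 gave 1780. The list genes called numbered 216, then 94 with 22 libraries, 140 with no filter, 19 at a size of at least 1 and 57 to 131 with 1 library left out. Against PMD-Sen the count was 1965, 215 at a size of at least 1 and 279 to 1149 with 1 library left out. Over the named genes, each scored on day 2 against Untreated only, 1393 of 1888 alternative values kept their call or lack of one. Of the rest, 490 lost it, 5 gained it and none reversed. Some genes named for the day 1 or day 3 step, such as ADAMTS19, were not called against Untreated and still enter this total. Their changes from day 1 or day 3 were not scored in it. No paired analysis was possible because the recovered libraries carry no replicate number. The fit of all 52 libraries and the comparison with DDR-Sen day 2 were not run, since the other tables keep too few digits. The 22-library fit, the 4-library fits of days 1 and 3, and the alternatives for other days, lists and PMD-Sen were chosen after seeing the data. The cause of the lower counts was not tested where a fit changed the libraries used.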
